A study of Mus musculus with 4 samples.

Results

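The D cyclins, the kinases they activate, the inhibitors of those kinases and the retinoblastoma gene were examined in the newborn mouse cerebellum after deletion of Smarca5, the gene of the chromatin remodelling ATPase Snf2h. The 10 genes are Ccnd1, Ccnd2, Ccnd3, Cdk4, Cdk6, Cdkn1b, Cdkn2c, Cdkn2d, Cdkn3 and Rb1. They were found on the array by gene symbol or synonym, which gave 22 of the 38880 array features. The 10 genes are among 19909 named by the array annotation, and 1 of the 22 features, of Ccnd3, carries the clone name 9230106B05Rik.

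Cerebella were taken at postnatal day 0 from C57Bl/6 mice, either conditional knockouts of Smarca5 (cKO) or wild type. Each of the 4 two-colour arrays set cKO RNA directly against wild-type RNA, with 3 RNA samples per genotype. The dyes were swapped between arrays, so that cKO was labelled with Cy5 on replicates 1 and 3 and with Cy3 on the others. Replicates 1 and 4 used the same wild-type RNA sample and replicates 3 and 4 the same cKO sample, so the arrays were not independent. The labels name neither the driver of the conditional deletion nor the number of animals behind each RNA sample. Every value below is a log ratio of cKO over wild type on the centred array, on a base taken to be 2, so that 0 means equal signal. The file holds ratios and no signal levels, so neither the abundance of a gene nor the presence of cerebellar markers could be read from it. In whole tissue, fewer cells of a type and less RNA per cell cannot be told apart.

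D-type cyclins bind Cdk4 and Cdk6, and the active kinases phosphorylate the retinoblastoma protein, which releases E2F transcription factors and lets a cell pass from G1 into S phase. Inhibitors of the INK4 family, which include the products of Cdkn2c (p18) and Cdkn2d (p19), bind Cdk4 and Cdk6 directly. The product of Cdkn1b (p27) belongs to the Cip/Kip family and binds cyclin-kinase complexes. In the cerebellum the granule cell progenitors of the external layer divide in response to Sonic hedgehog, and Ccnd1 and Ccnd2 are known for their expression in these progenitors. Granule neurons leave the cycle with rising p27.

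The genes were selected on their role in G1 with their ratios of cKO over wild type in this comparison already known, and those of Ccnd1, Ccnd2 and Cdkn3 were among the values they were chosen by. Their ratios are therefore given as a description, with no test, and a count among them is no evidence about the set. The fit across all 30457 named features with limma called 0 features at an adjusted p under 0.05 (0% of those tested), while 417 had an unadjusted p under 0.05 (1.37%), 202 higher and 215 lower in cKO. The feature named Smarca5 read -0.36, -1.16, -1.43 and -0.75 on replicates 1 to 4. A feature under the clone name D030040M08Rik, now a synonym of Smarca5, read 0.01, 0.34, 0.10 and 0.47. The targeted gene was thus below 0 on every array by the feature that carries its name and above 0 on every array by the other. Their positions relative to the deletion are not known, so neither checks the labels in full.

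Among the 22 features, 17 had a mean over the 4 arrays below 0 and 5 above, where 50.5% of all named features had a mean below 0. The median of the members' means was -0.15, against -0.0025 over all named features. Of the 22, 4 were below 0 on all 4 arrays (5.41% of named features were) and 2 above 0 on all 4 (5.46%), which left 16 on both sides of 0. The 4 lower features were both of Ccnd2, 1 of Ccnd1 and 1 of Cdkn1b. The 2 higher features were the only one of Cdkn3 and the other one of Cdkn1b. The median SD over the 4 arrays was 0.47 for the members and 0.45 for all named features. In 15 of the 22 the mean was smaller in size than the SD over the arrays. The share of all named features for which this held was not computed, so nothing about the members is read from that count.

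**Figure D1:**
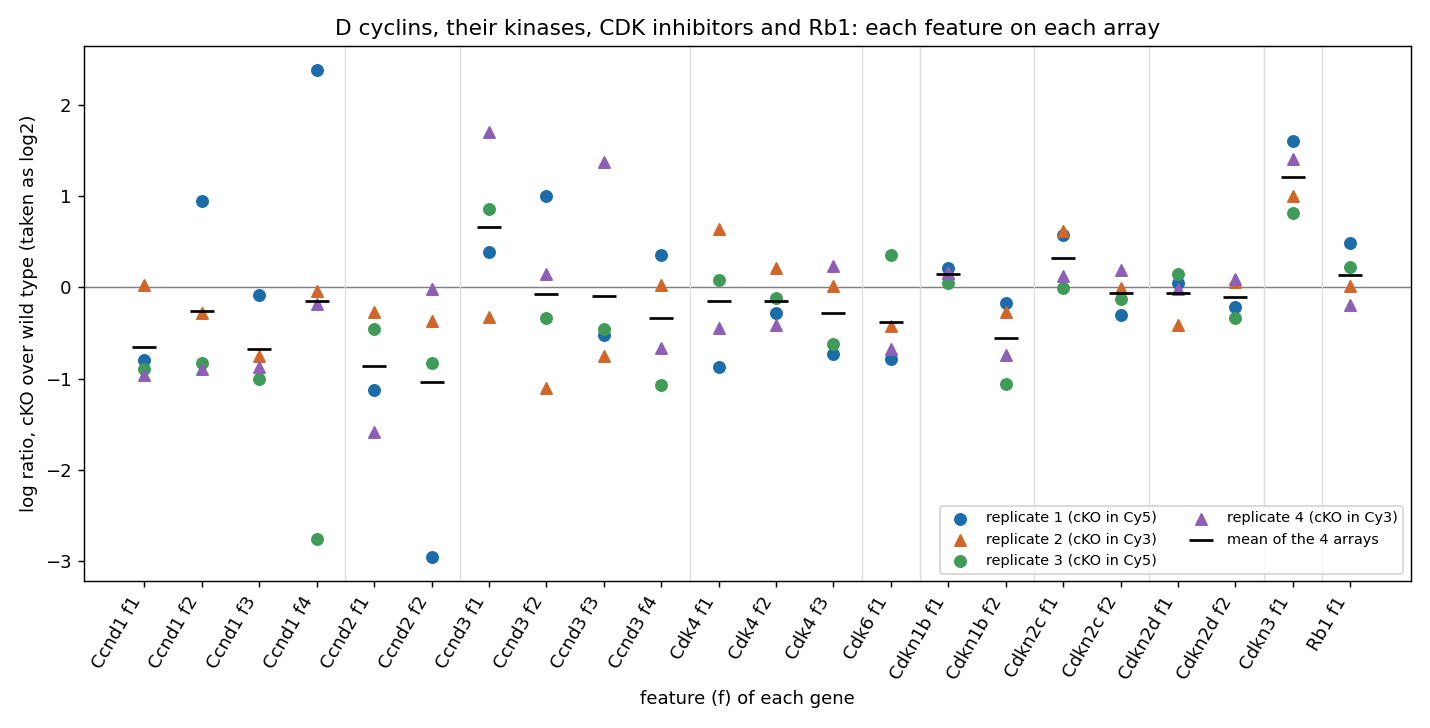
Log ratio of cKO over wild type (taken as log2, vertical axis) for each of the 22 features (horizontal axis) on each of the 4 arrays, with circles for cKO in Cy5, triangles for cKO in Cy3 and a black bar for the mean. Both Ccnd2 features lie below 0 on every array and Cdkn3 lies between 0.82 and 1.60, while Ccnd1 feature 4 spans -2.76 to 2.38.

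Ccnd2, which encodes cyclin D2, had the lowest ratio of the 10 genes. Its feature UT13210 read -1.12, -0.27, -0.46 and -1.58 on replicates 1 to 4, a mean of -0.86 ± 0.60 (SD, n = 4 arrays). Its feature UT14762 read -2.95, -0.37, -0.83 and -0.02, a mean of -1.04 ± 1.31 (SD, n = 4 arrays). Both features were below 0 on all arrays, but they placed the lowest value on different arrays, replicate 4 for the first and replicate 1 for the second. They differed by 1.83 on replicate 1 and by 1.56 on replicate 4, and by only 0.10 and 0.37 on replicates 2 and 3. With the features averaged, Ccnd2 read -2.04, -0.32, -0.65 and -0.80, a mean of -0.95 ± 0.75 (SD, n = 4 arrays) that lay at percentile 0.39 of the 19909 genes. The fitted ratio, in which replicate 4 has a weight of 0, was -1.0 ± 0.41 (SE), or 2.00-fold lower if the base is 2.

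Replicate 1 carried much of the averaged value, through UT14762. Without replicate 1 the mean of Ccnd2 was -0.59, and without another array it lay between -1.16 and -1.0. For UT14762 the mean was -0.41 without replicate 1. For UT13210 it was -0.77 without replicate 1 and came closest to 0 without replicate 4, at -0.62. By dye orientation Ccnd2 had a mean of -1.34 (cKO labelled Cy5) and -0.56 (cKO labelled Cy3), below 0 in both. Nearly all of that gap came from UT14762, at -1.89 and -0.20, whereas UT13210 had -0.79 and -0.93.

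Ccnd1, which encodes cyclin D1, was read by 4 features that did not give the same picture. UT16776 read -0.80, 0.03, -0.89 and -0.96 on replicates 1 to 4, a mean of -0.655 ± 0.46 (SD, n = 4 arrays). UT33037 read -0.08, -0.75, -1.0 and -0.87, a mean of -0.675 ± 0.41 (SD, n = 4 arrays). These features were well below 0 on 3 arrays and close to 0 on the other, replicate 2 for the first and replicate 1 for the second. UT25627 read 0.95, -0.28, -0.83 and -0.89, a mean of -0.26 ± 0.85 (SD, n = 4 arrays). UT35770 read 2.38, -0.04, -2.76 and -0.18, a mean of -0.15 ± 2.10 (SD, n = 4 arrays). The last of these was lower than the other 3 on replicate 3 and higher than them on replicate 1, and its SD over the arrays lay at percentile 99.67 of all named features.

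On replicates 3 and 4, which shared the cKO RNA sample, all 6 features of Ccnd1 and Ccnd2 were below 0. On replicate 2 this was so for 5 and on replicate 1 for 4. With the 4 features averaged, Ccnd1 read 0.61, -0.26, -1.37 and -0.73, a mean of -0.44 ± 0.83 (SD, n = 4 arrays), with a fitted ratio of -0.34 ± 0.40 (SE). Replicate 1 alone stood above 0. The mean was -0.785 without replicate 1 and -0.12 without replicate 3, and leaving out replicate 3 turned the mean of UT35770 to 0.72. By dye orientation Ccnd1 had -0.38 with cKO in Cy5 and -0.49 with cKO in Cy3.

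Ccnd3, which encodes cyclin D3, had no common direction among its features. The feature named 9230106B05Rik (UT17512) read 0.39, -0.32, 0.86 and 1.70 on replicates 1 to 4, a mean of 0.66 ± 0.85 (SD, n = 4 arrays). UT25679 read 1.00, -1.10, -0.34 and 0.15, UT32223 read -0.52, -0.75, -0.46 and 1.37, and UT37912 read 0.35, 0.03, -1.07 and -0.66. The means of these 3 were -0.07, -0.09 and -0.34, and each lay on both sides of 0. All 4 Ccnd3 features averaged to 0.04 ± 0.53 (SD, n = 4 arrays), and the mean turned to -0.16 when replicate 4 was left out.

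The disagreement between features was compared with that of other genes. Over the 6685 genes with 2 or more features, the SD between features of a gene on an array had a median of 0.48 in log2 units. The 3 D cyclins were well above it, at 0.87 for Ccnd1 (percentile 90.83), 0.86 for Ccnd2 (percentile 90.50) and 0.79 for Ccnd3 (percentile 86.48). That features of Ccnd1 and Ccnd2 differ was known when the set was defined, so these percentiles are a description only. Cdkn1b had 0.54, Cdkn2c 0.38, Cdk4 0.34 and Cdkn2d 0.26, so 4 of the 7 members with several features were above the median and 3 below it. The table does not say which part of a transcript a feature reads, so the features of a cyclin could not be assigned to isoforms.

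**Figure D2:**
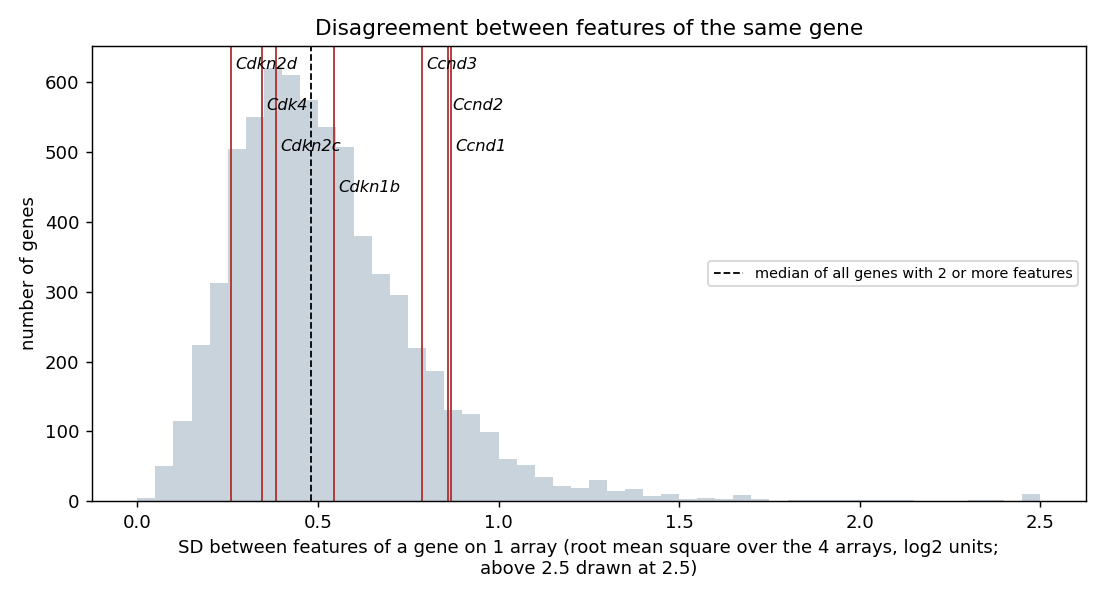
Histogram of the SD between features of a gene on 1 array (root mean square over the 4 arrays, log2 units, horizontal axis) over the 6685 genes with 2 or more features, with values above 2.5 drawn at 2.5. Red lines mark the 7 members and the dashed line the median of 0.48. The 3 D cyclins lie between 0.79 and 0.87, where the disagreement for Ccnd1 and Ccnd2 was known when the set was defined.

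Cdk4, the D-cyclin kinase, was read by 3 features with means close together. UT02758 read -0.87, 0.64, 0.08 and -0.45 on replicates 1 to 4, UT04713 read -0.28, 0.21, -0.12 and -0.41, and UT09571 read -0.73, 0.01, -0.62 and 0.23. Their means were -0.15, -0.15 and -0.28. All 3 were below 0 on replicate 1 and above 0 on replicate 2. With features averaged, Cdk4 had -0.19 ± 0.37 (SD, n = 4 arrays), made up of -0.42 with cKO in Cy5 and 0.04 with cKO in Cy3. Its sign therefore differed between the dye orientations, and without replicate 1 the mean was -0.05. Cdk6, the other D-cyclin kinase, was read by 1 feature (UT26106) at -0.79, -0.42, 0.36 and -0.68, a mean of -0.38 ± 0.52 (SD, n = 4 arrays). It was below 0 on all arrays but replicate 3, and its mean without that array was -0.63.

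The INK4 genes among the members, Cdkn2c and Cdkn2d, lay near 0 with features averaged. Cdkn2c (p18) read 0.57, 0.62, -0.01 and 0.13 on replicates 1 to 4 by UT20138, and -0.30, -0.01, -0.13 and 0.19 by UT33589. Cdkn2d (p19) read 0.05, -0.41, 0.15 and -0.02 by UT10433, and -0.21, 0.06, -0.34 and 0.09 by UT28547. None of these 4 features kept 1 sign on all arrays. With features averaged, Cdkn2c had 0.13 ± 0.15 and Cdkn2d -0.08 ± 0.09 (SD, n = 4 arrays), and for both genes no array exceeded 0.305 in size.

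Cdkn1b (p27) was read by 2 features of opposite and steady sign. UT18370 read 0.21, 0.16, 0.05 and 0.16 on replicates 1 to 4, with a mean of 0.145 ± 0.07 (SD, n = 4 arrays) and one of the smallest spreads on the array (percentile 1.18 of named features). UT38691 read -0.17, -0.27, -1.06 and -0.74, with a mean of -0.56 ± 0.42 (SD, n = 4 arrays). The direction for p27 thus depended on the feature, on every array and in both dye orientations. The 2 features together averaged to -0.21 ± 0.24 (SD, n = 4 arrays).

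Cdkn3 had the highest ratio of the 10 genes. It encodes KAP, a phosphatase that removes the activating phosphate from cyclin-dependent kinases, and it is unlike the other inhibitors in that it is known for peaking in dividing cells. Its single feature (UT05376) read 1.60, 1.00, 0.82 and 1.41 on replicates 1 to 4, a mean of 1.21 ± 0.36 (SD, n = 4 arrays) at percentile 99.82 of the 19909 genes. All 4 arrays were above 0, as they were for 5.92% of all genes. The ratio of Cdkn3 was among the values the members were chosen by, so its size and steadiness are a description only. The mean was 1.21 with cKO in Cy5 and 1.205 with cKO in Cy3, and it stayed between 1.08 and 1.34 when 1 array was left out. The fitted ratio was 1.14 ± 0.26 (SE), or 2.20-fold higher if the base is 2. No second feature of Cdkn3 was there to set beside it.

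Because Cdkn3 was the member with the highest ratio, the sequence around its start is shown, from RefSeq for GRCm38.p6 on the plus strand at chr14:46760291-46760590, which runs from 250 bases before the annotated start to 50 bases from it. Capitals mark its 1 match to the cell cycle genes homology region (CHR, TTTGAA or TTCAAA on the other strand), an element known from promoters of genes expressed in G2 and mitosis.
Cdkn3: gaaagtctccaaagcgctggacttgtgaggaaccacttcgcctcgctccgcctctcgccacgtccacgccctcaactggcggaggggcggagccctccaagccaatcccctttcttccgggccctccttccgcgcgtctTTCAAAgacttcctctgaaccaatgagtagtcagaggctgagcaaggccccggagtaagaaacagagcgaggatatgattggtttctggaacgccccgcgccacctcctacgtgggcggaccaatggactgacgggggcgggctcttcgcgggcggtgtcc
The match starts at base -111 from the start. A CHR match is common, since 17.9% of the 32851 windows in the table held one, and it is a description of letters only. Windows were held for 7 of the 10 members (9 windows, with 2 each for Ccnd3 and Cdkn2c), and the Cdkn3 window was the 1 of these 9 with a CHR match. The E-box CACGTG, the motif of Myc proteins, was found in windows of Cdk4, Cdk6 and Cdkn2c, and in 7.15% of all windows. The E2F motifs TTTCGCGC (0.323% of windows) and TTTGGCGC (0.514%) and the GLI motif TGGGTGGTC (0.253%) were found in 0 of the 9, on either strand.

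Rb1, which encodes the retinoblastoma protein itself, was read by 1 feature (UT30910) at 0.49, 0.02, 0.22 and -0.19 on replicates 1 to 4. Its mean was 0.135 ± 0.29 (SD, n = 4 arrays), with 0.36 where cKO was in Cy5 and -0.09 where it was in Cy3. The negative mean in the second orientation came from replicate 4 alone, and without replicate 1 the mean over the arrays was 0.02.

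**Figure D3:**
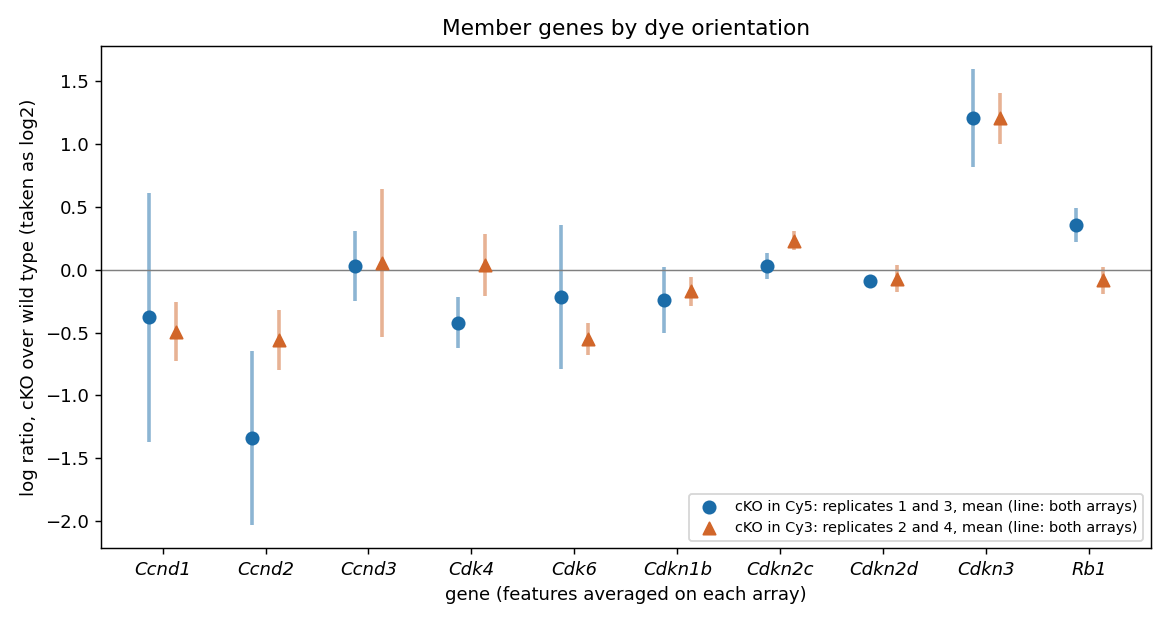
Log ratio of cKO over wild type (taken as log2, vertical axis) for the 10 genes with features averaged on each array. Symbols are means of the 2 arrays with cKO in Cy5 (circles) or in Cy3 (triangles), and lines join those 2 arrays. Ccnd2 is below 0 and Cdkn3 above 0 in both orientations, while the means of Cdk4 and Rb1 differ in sign between them.

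Over the 22 features, 13 had the same sign in both dye orientations and 9 did not, against 46.6% of named features with the same sign. The 9 included 3 features of D cyclins, 2 of Cdk4, both of Cdkn2d, 1 of Cdkn2c and Rb1. With the columns of the dye-flip arrays turned, as they would have to be if the deposited ratios were not already 1 genotype over the other, the fitted ratio was 0.47 for Cdkn3, -0.79 for Ccnd2 and -0.17 for Ccnd1. That of Ccnd3 was then 0.20 and that of Cdk4 -0.38.

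Arrays were compared for markers of other cells and tissues, since Ccnd1 and Ccnd2 with features averaged each had an extreme value on replicate 1. Neither average passed the rule for an array apart that is given in the closing part. On replicate 1, 12 of 13 Hox genes that mark the caudal hindbrain and spinal cord were above 0, with a median of 3.605. Their medians on replicates 2, 3 and 4 were -0.20, -0.64 and -0.285. On the same array, with features averaged, Ccnd2 was at its lowest and Ccnd1 at its highest. The Ccnd1 features did not share a sign there, with -0.80 for UT16776, 0.95 for UT25627, -0.08 for UT33037 and 2.38 for UT35770. The Ccnd1 average on replicate 1 thus rested largely on UT35770. Without replicate 1 the Ccnd2 mean was closer to 0 and the Ccnd1 mean further below it (-0.59 and -0.785). The part of such tissue in the cyclin ratios was not tested.

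**Figure D4:**
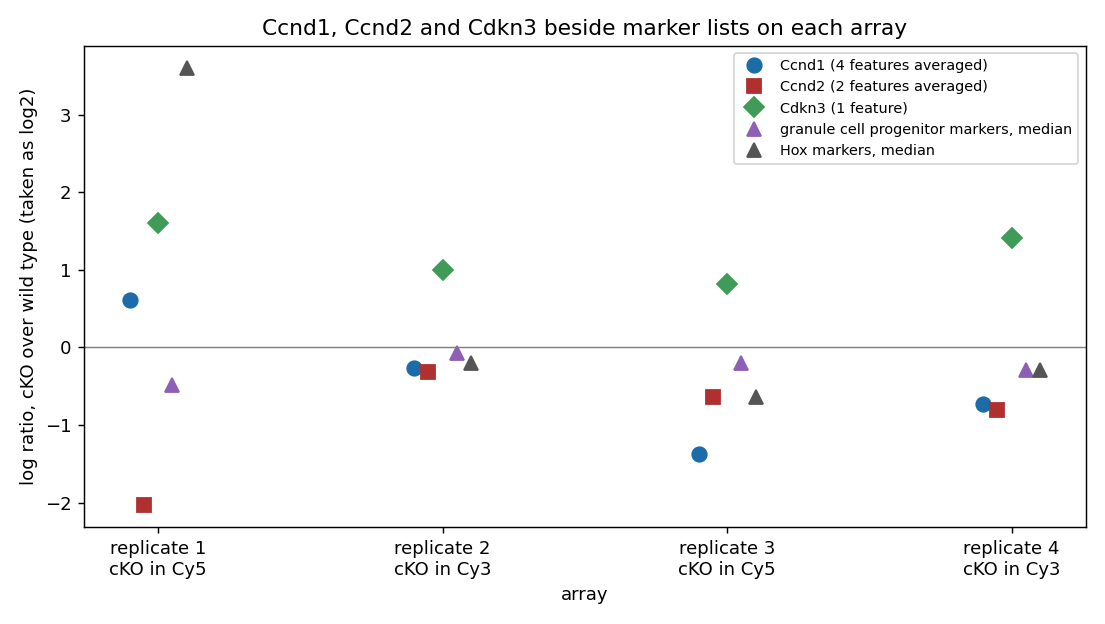
Log ratio of cKO over wild type (taken as log2, vertical axis) on each array for Ccnd1, Ccnd2 and Cdkn3, beside the median of 7 granule cell progenitor markers and of 13 Hox genes. On replicate 1 the Hox median is 3.605 and, with features averaged, Ccnd2 is at -2.04 and Ccnd1 at 0.61. Single Ccnd1 features run from -0.80 to 2.38 on that array. Cdkn3 is above 0 on each array.

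Granule cell progenitor markers, of which 7 of 8 were measured, had medians of -0.48, -0.07, -0.20 and -0.295 on replicates 1 to 4. Ccnd2 with features averaged and the median of this list were both lowest on replicate 1 and both highest on replicate 2. Neither Ccnd2 feature had that order by itself, as UT13210 was lowest on replicate 4 (-1.58) and UT14762 highest there (-0.02). Of the 7 single markers only Barhl2 had that order, at -1.30, 0.13, -0.59 and -0.12 on replicates 1 to 4. Over the 4 arrays the median of the genes' means was -0.26 for granule cell progenitors, -0.425 for differentiating granule neurons (5 genes) and -0.12 for Purkinje cells (7 genes). It was 0.005 for radial and Bergmann glia (7 genes), 0.05 for the oligodendrocyte lineage (6 genes), -0.09 for endothelium (6 genes) and 0.07 for microglia (6 genes). It was -0.15 for meninges (5 genes), 0.175 for choroid plexus (5 genes) and -0.04 for erythroid cells (3 genes). Apart from the Hox list and the lists of granule cell progenitors and differentiating granule neurons, no list had a median over 0.41 in size on any array. Differentiating granule neurons reached -0.92 on replicate 4. The part of these cells in the cyclin ratios was not tested.

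The other genes of G1/S control were read to see whether they moved with the cyclins. Of 41 genes in 5 lists, 40 were measured, by 79 features, and 0 of these features passed limma's test in either direction after Benjamini-Hochberg adjustment over all 30457 features (0% of all features did). At an unadjusted p under 0.05 there was 1 feature (1.37% of all features reached that), or 2 with arrays fitted as independent. It was 1 of the 3 features of E2f2, an activating E2F, which read -1.19, -0.67, -0.41 and -0.28 on replicates 1 to 4 (limma p 0.0492, adjusted p 1). With its 3 features averaged E2f2 read -0.64, 0.19, -0.82 and 0.03, on both sides of 0. The median of the 40 genes' means was -0.04, against -0.00 over all genes, with 25 below 0 and 15 above (50.1% of all genes had a mean below 0).

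Cyclins E and A and their kinase Cdk2, which act after the D cyclins, had a median of -0.0025 over 5 genes. Ccne2 (cyclin E2) was lowest at -0.25 ± 0.28 and Ccna1 (cyclin A1) highest at 0.355 ± 0.25 (SD, n = 4 arrays), and Cdk2, with 4 features, had -0.05 ± 0.06. The other CDK inhibitor genes had a median of -0.145, with 4 of 4 means below 0. They ran from Cdkn2a (p16 and Arf) at -0.29 ± 0.35 to Cdkn1a (p21) at -0.125 ± 0.19 (SD, n = 4 arrays).

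Pocket proteins and E2F factors had a median of -0.01 over 12 genes, 6 below 0 and 6 above. E2f1, whose product activates S-phase genes, was lowest at -0.53 ± 0.57 (SD, n = 4 arrays), with readings of -0.38, -0.29, -0.09 and -1.36. Without replicate 4 its mean was -0.25, and E2f8 was then the lowest of the list at -0.45. E2f5, whose product acts as a repressor with the pocket proteins, was highest at 0.37 ± 0.10, with readings of 0.24, 0.34, 0.44 and 0.45. Both kept 1 sign on all arrays, as did 5.72% of all genes on the lower side and 5.92% on the higher side. Genes of CDK activation and of p27 and D cyclin turnover had a median of -0.01 over 12 genes. They lay between Cks1b, a cofactor in p27 degradation, at -0.14 ± 0.69 and Mnat1, a subunit of the CDK-activating kinase, at 0.15 ± 0.43 (SD, n = 4 arrays).

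Genes of the upstream Sonic hedgehog and N-myc pathway, through which D cyclins are induced in granule cell progenitors, had a median of -0.105 over 7 genes. Gli1, also in this list, was not measured. Gli2, a transcription factor of the pathway, was lowest at -0.31 ± 0.27 and Shh, the ligand, highest at 0.32 ± 0.21 (SD, n = 4 arrays). With its features averaged Shh was above 0 on all 4 arrays, at 0.27, 0.39, 0.56 and 0.055, but neither feature was by itself. UT00360 read 0.30, 1.46, 0.59 and -0.58 on replicates 1 to 4, and UT11459 read 0.24, -0.68, 0.53 and 0.69. Mycn, which encodes N-myc, had -0.14 ± 0.19 (SD, n = 4 arrays).

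**Figure D5:**
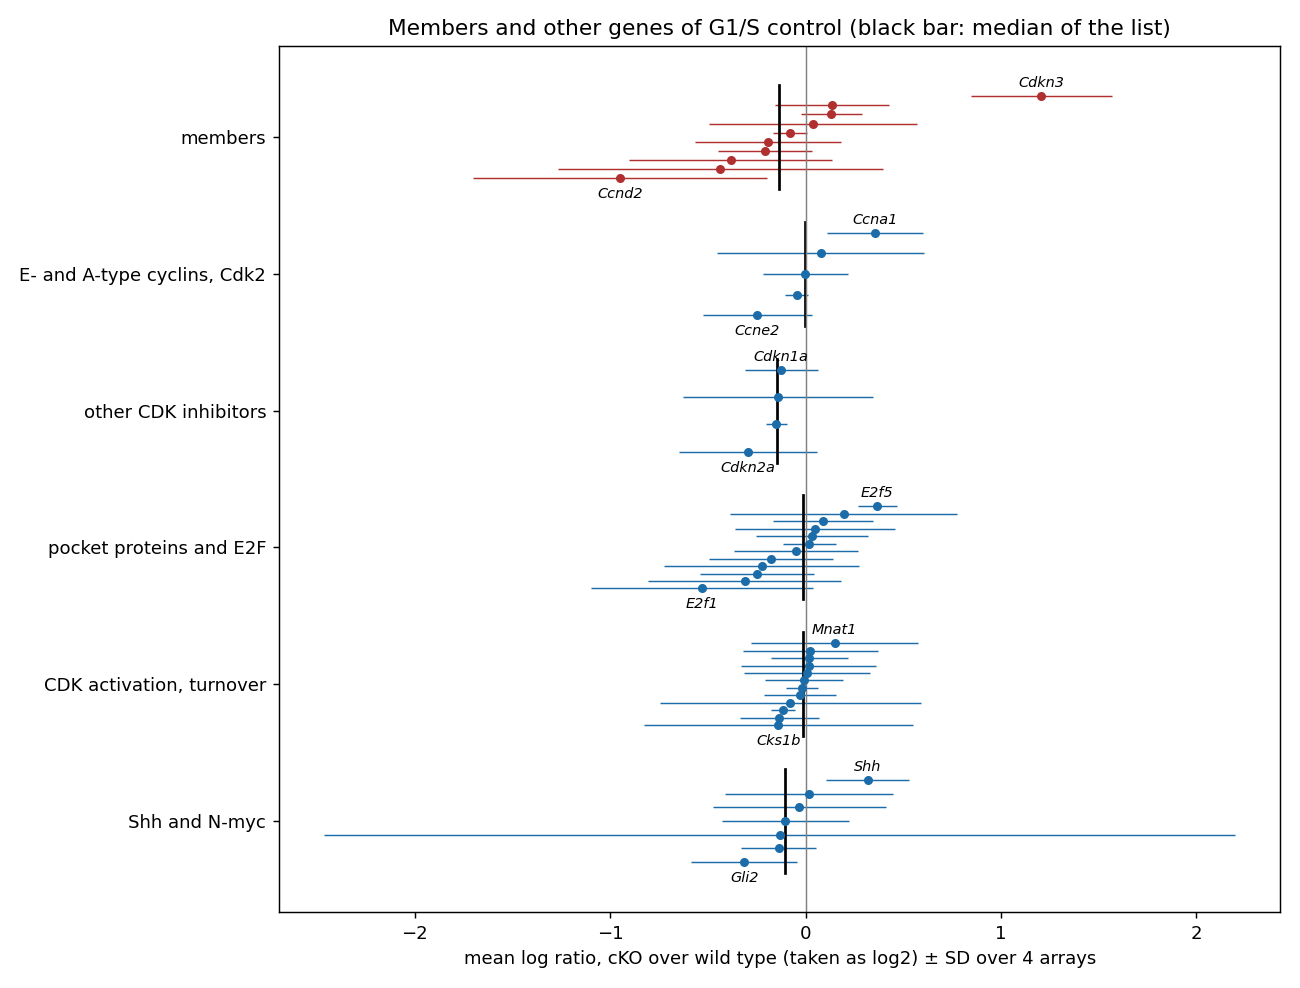
Mean log ratio of cKO over wild type (taken as log2, horizontal axis) with SD over the 4 arrays for the 10 members (red) and 40 other genes of G1/S control in 5 lists (blue); black bars are list medians and the lowest and highest gene of each list is named. Ccnd2 at -0.95 and Cdkn3 at 1.21 lie outside the range of the other lists, whose means run from -0.53 (E2f1) to 0.37 (E2f5). The ratios of Ccnd2 and Cdkn3 were among the values the members were chosen by, so their place is a description only.

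Genes with the most similar profile over the 4 arrays were found by the root mean square difference in log ratio, among 17423 genes outside the set. Nearest to Ccnd2 were Lmod2 (difference 0.06), Krt82 (0.148) and Car13 (0.21), and nearest to Ccnd1 were Olfr1271 (0.058), Calcb (0.109) and Scgb2b24 (0.166). Nearest to Cdkn3 were Cyp2c39 (0.256), Cyp11b2 (0.271) and Tmprss3 (0.319). All 9 were read by a single feature. With only 4 arrays to match on, nothing is read from these neighbours.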

How the data were processed

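RNA of cKO and wild-type cerebella was compared on 4 two-colour arrays, after Trizol extraction and dendrimer labelling, per the labels' protocols. The authors deposited 1 log2 ratio per feature and array (the log base is not stated and was taken as 2), already near 0 in each column. Their normalization is not given in the sources used here, and scanner intensities were not used here, so dim features could not be filtered. The direction was taken as cKO over wild type, which is likely but not stated. Among unnamed features, 46 of large ratio had medians of -7.04, 7.085, -6.43 and 6.625 on replicates 1 to 4, so their sign followed the dye and the columns were used as deposited. If the direction were wild type over cKO, every sign would turn.

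Symbols came from the platform annotation (30457 features with 1 symbol, 8423 with none and 0 with several) and were updated through RefSeq for GRCm38.p6, used for names only. Arrays were centred on their median. Named features were fitted with limma 3.58.1 (lmFit, eBayes, two-sided) with an intercept alone, a correlation of 0.5 between arrays sharing an RNA sample and Benjamini-Hochberg adjustment at 0.05. This gives replicates 1 to 3 a weight of 0.333 each and replicate 4 a weight of 0 in the estimate. Features with no symbol were left out of the fit because they hold the features just described. Arrays sharing an RNA sample correlated over named features at -0.0007 (replicates 1 and 4) and -0.09 (replicates 3 and 4), so the assumed correlation was not seen. Over all pairs of arrays the correlation ran from -0.12 (replicates 1 and 2) to 0.05 (replicates 1 and 3), so no pair agreed closely across genes. The pairs of the same dye orientation had 0.05 (replicates 1 and 3) and 0.02 (replicates 2 and 4). The fit ran in R 4.3.3 (data.table, version 1.17.8) and was tested on simulated data. Means ± SD are over 4 arrays, whose number limits the precision, and the 3 RNA samples of each genotype are what stands behind any p-value. Values were handled in Python 3.11.15 with pandas 2.3.3 and numpy 2.4.6 and drawn with matplotlib 3.10.9.

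The members, the pathway lists and the marker lists were chosen with earlier results of these data known. Named genes were all members, the lowest and highest gene of each pathway list and any with a feature at an unadjusted p under 0.05, and the 3 nearest profiles of Ccnd1, Ccnd2 and Cdkn3. Others (Cdk2, Mycn, Barhl2 and the genes named in the closing part) were named after their values were seen. Alternatives were independent arrays, turned dye-flip columns, a dye term, no centring, averaged features and each array left out.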

Additional observations from a re-analysis of the deposited data

Results flagged for a closer look

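Of 45 values read on the 4 arrays (member features and genes, and medians of the pathway and marker lists), 3 had 1 array whose gap to the nearest other array made up most of the range (past Dixon's critical value), where chance gives 2.25. Ccnd1 feature UT16776 had 0.03 on replicate 2, while the other arrays lay between -0.96 and -0.80. Ccnd3 feature UT32223 had 1.37 on replicate 4, while the other arrays lay between -0.75 and -0.46, and its mean without that array was -0.58. The Hox list had a median of 3.605 on replicate 1 and lay between -0.64 and -0.20 on the others.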

How the results depend on the processing

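The count of features called was 0 in the fit as reported and with independent arrays, averaged features, a dye term, no centring, unnamed features included (chosen after seeing the data) and each array left out. With dye-flip columns turned it was 2. The features at an unadjusted p under 0.05 numbered 417, against 1402 with independent arrays and 857 once a dye term was added. Leaving out replicate 2 gave 169 and leaving out replicate 4 gave 1359. Of the features of the other G1/S lists, 1 had such a p, 2 with independent arrays, 2 with dye-flip columns turned, and 0 to 3 when an array was left out (0 without replicate 2 and 3 without replicate 4, chosen after seeing the data). The count of member features with a mean below 0 was 17, and 14 to 17 with an array left out or 14 with columns turned. Of the 22 fitted ratios of member features, 5 moved by more than their SD with dye-flip columns turned (4 features changed sign). The number that moved that far was 0 under independent arrays, a dye term or no centring, and with replicate 1, 2 or 3 left out. Leaving out replicate 4 could not change a fitted ratio, since the main fit draws nothing from that array for it, so its part was not tested this way. Leaving out replicate 1, 2 or 3 changed the sign of 2, 3 and 1 of these ratios. The cause of these changes was not tested. Signal over background is unknown here, so weak features could not be told from strong ones.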

Other observations

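The gene of the hedgehog receptor, Ptch1, a direct target of the pathway that induces D cyclins, had features that differed widely, and it is named here after its values were seen. Feature UT10318 read -5.25, 4.19, -2.82 and 3.35 on replicates 1 to 4, so that its sign followed the dye, with means of -4.035 where cKO was in Cy5 and 3.77 where it was in Cy3. Feature UT16517 read -0.25, 0.06, -0.01 and -0.33. The features called with dye-flip columns turned, of Grap2 and Sec14l1, had the same kind of profile, with 4.13, -4.16, 4.20 and -3.83 for Grap2 and 6.28, -7.93, 7.18 and -7.29 for Sec14l1. Among the 22 features of the members, the largest difference between dye orientations (Cy5 minus Cy3) was -1.695, for Ccnd2 feature UT14762.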
